A study of Mus musculus with 2 samples.

Results

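Head-to-head promoters are stretches of DNA from which a pair of genes is transcribed in opposite directions. They were defined here from the gene annotation alone, as pairs of autosomal protein-coding genes of GENCODE vM21 (GRCm38) on opposite strands, with 5′ ends pointing apart and transcription start sites (TSSs) at most 1000 bp from each other. The rule found 734 pairs. In 20 of them a gene had a closer partner and the pair was left out, so that 714 pairs with 1428 genes were kept, of 20807 autosomal protein-coding genes. The distance between the TSSs, called the gap below, had a median of 127 bp, quartiles of 66 and 239 bp, and a range of 1 to 987 bp. Head-to-head pairs whose 5′ ends overlap are not members, and 446 gene pairs were of that kind, with TSSs at most 1000 bp apart. The pairs were compared with 16684 single promoters, which have no other protein-coding TSS within 5 kb. Transcription was not measured in these samples, so whether both genes of a pair are active in these cells was not tested.

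The samples are 2 replicates of 1 condition: genomic DNA of mESCs of the line E14, a line of mouse embryonic stem cells, kept in serum with LIF, with no treatment named. The replicates come from different passages of the line and are separate libraries and sequencing runs. The spread between them is one within a single line, in which passage, library and run cannot be told apart. SCoTCH-seq keeps the strands of a DNA fragment together with hairpin adapters and reads, at each CpG, the state of the cytosine on both strands, as unmodified (C), methylated (M) or hydroxymethylated (H). The 9 states were grouped into 6. CC, MM and HH have the same base on both strands. MC/CM is mC opposite C, HC/CH is hmC opposite C, and HM/MH is hmC opposite mC. The autosomal sites held 141159011 calls in replicate 1 and 31102023 calls in replicate 2. Each site of either file had at least 5 calls, and a level is the mean over sites of the percentage of calls in a state.

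In CpG islands, the CpG-rich stretches at most promoters of widely used genes, CpG sites are largely free of mC, which DNA methyltransferases deposit over most of the rest of the genome. TET enzymes oxidise mC to hmC. Maintenance methylation copies mC to the new strand after replication, and hmC is copied poorly, so that a CpG can carry different bases on its strands. Head-to-head pairs are known for being rich in CpG islands and in genes of DNA repair, chromatin and metabolism.

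The DNA between the TSSs of 3 pairs of long-known partners is shown first, since these are the plain case of an unmodified shared promoter. CpG sites are in capitals. The sequences are of the reference genome (GRCm38), read 5′ to 3′ on the plus strand, from the base after the TSS of the minus-strand gene to the base before the TSS of the plus-strand gene, and the minus-strand gene is named first.
Brca1/Nbr1, chr11:101551956-101552148, plus strand: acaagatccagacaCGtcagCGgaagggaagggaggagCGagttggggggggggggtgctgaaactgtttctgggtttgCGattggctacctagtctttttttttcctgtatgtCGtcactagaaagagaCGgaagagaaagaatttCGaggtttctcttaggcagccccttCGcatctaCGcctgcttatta
Toe1/Mutyh, chr4:116807641-116807722, plus strand: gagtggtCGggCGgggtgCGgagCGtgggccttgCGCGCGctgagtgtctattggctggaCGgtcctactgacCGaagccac
Hadha/Hadhb, chr5:30155163-30155247, plus strand: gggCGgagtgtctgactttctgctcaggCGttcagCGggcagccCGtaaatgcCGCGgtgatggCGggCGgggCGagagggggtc
In Brca1/Nbr1, which joins a DNA repair gene and an autophagy receptor, the stretch held 9 CpG sites in 193 bp. In Toe1/Mutyh, with the DNA glycosylase gene Mutyh, it held 9 in 82 bp, and in Hadha/Hadhb, the subunits of the mitochondrial trifunctional protein of fat oxidation, 9 in 85 bp. Every covered site in these gaps was CC in every call of replicate 1, with 5, 7 and 2 covered sites in the same order. In replicate 2 no site of these gaps was covered.

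A second set of 5 pairs is shown because modified CpG sites lay in them or just inside one of their genes. CpG sites are again in capitals.
Miip/Fv1, chr4:147868817-147868978, plus strand: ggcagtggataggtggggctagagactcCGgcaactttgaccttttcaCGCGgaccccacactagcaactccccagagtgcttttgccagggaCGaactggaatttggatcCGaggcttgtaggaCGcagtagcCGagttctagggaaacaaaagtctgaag
Rbak/Spdye4b, chr5:143180776-143181016, plus strand: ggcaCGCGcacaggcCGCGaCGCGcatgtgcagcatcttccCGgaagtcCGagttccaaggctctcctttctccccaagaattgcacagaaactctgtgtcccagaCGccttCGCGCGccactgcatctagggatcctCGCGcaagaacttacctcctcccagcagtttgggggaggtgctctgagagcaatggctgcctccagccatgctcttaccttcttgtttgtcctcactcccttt
Plgrkt/Cd274, chr19:29367391-29367454, plus strand: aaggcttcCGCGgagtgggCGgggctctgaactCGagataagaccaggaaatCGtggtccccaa
Net1/Tubal3, chr13:3918221-3918273, plus strand: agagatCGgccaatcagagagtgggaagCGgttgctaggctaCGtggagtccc
Col4a4/Col4a3, chr1:82586850-82586920, plus strand: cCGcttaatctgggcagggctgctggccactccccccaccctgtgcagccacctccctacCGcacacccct
The gaps held 7, 14, 5, 3 and 2 CpG sites in this order. In Miip/Fv1 the gap itself was modified, with a mean CC level of 37.5% at the 7 sites covered in replicate 1 and 49% at the 5 covered in replicate 2. In Rbak/Spdye4b the gap was CC in every call of both replicates, over 7 and 6 sites, while the side of Spdye4b, described below, was not. In Plgrkt/Cd274 CC was 97.1% over the 5 gap sites in replicate 1, and none was covered in replicate 2. In Net1/Tubal3 the 3 gap sites were CC in every call of replicate 1. No site of the Col4a4/Col4a3 gap was covered in either replicate.

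Pairs were CpG-rich. The genes of pairs had a median of 68 CpG sites within 500 bp of the TSS (quartiles 54 and 84), against 36 at single promoters (quartiles 10 and 68). A count of 40 or more was found at 90.5% of the paired genes and 47.8% of the single promoters, and a count under 20 at 3.36% and 38.2%. The 300 bp from 250 bp before to 50 bp after the TSS had a median GC content of 62.7% in pairs and 54.3% at single promoters.

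Short promoter motifs were counted in the same 300 bp windows, on both strands, by exact letters. The windows of partners overlap where the gap is short, so that 1 match can count for both genes. The ETS motif CCGGAAGT stood in 13.4% of paired genes, 3.82% of single promoters and 4.801% of all promoters. The YY1 motif AAGATGGC stood in 8.19%, 2.34% and 2.93%, and the Nrf1 motif GCGCATGCG in 4.97%, 1.92% and 2.20%. For promoters with 40 or more CpG sites within 500 bp, the shares in pairs and single promoters were 14.01% and 6.85% for ETS, 8.82% and 3.47% for YY1, and 5.50% and 3.65% for Nrf1. The Sp/KLF motif GGGCGG stood in 68.7% of paired genes, 41.4% of single promoters and 43.7% of all promoters, and at 40 or more CpG sites its shares were close, at 72.2% and 71.5%. The NF-Y motif CCAAT stood in 43.3%, 38.4% and 38.6%, and TATAAA in 4.20%, 13.9% and 12.7% of paired, single and all promoters. At 40 or more CpG sites the shares in pairs and single promoters were 44.2% and 36.7% for CCAAT and 3.7% and 6.3% for TATAAA. These shares describe letters in a window and were not tested.

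Coverage set how closely the promoters could be read. In replicate 1, 46.6% of the reference CpG sites 0 to 500 bp into paired genes had 5 calls, with a median depth of 7, and in replicate 2 15.1%, with a median depth of 6. At single promoters the shares were 34.1% and 10.1%. Of the 714 pairs, 697 had a covered site between the TSSs or up to 500 bp into either gene in replicate 1 and 677 in replicate 2, and 398 had 10 or more sites in each replicate. CpG sites inside a GGGCGG match were covered less often than other sites of the pairs, at 25.9% against 46.6% in replicate 1 and 6.72% against 15.3% in replicate 2. Sites inside the ETS motif were covered more often, at 59.3% against 45.6% and 22.7% against 14.9%, with CC at 98.2% against 97.7% in replicate 1 and 95.8% against 96.3% in replicate 2. Sites inside the Nrf1 motif were covered at 44.3% against 45.7% and 13.1% against 14.9%. For GGGCGG the CC level was 98.8% against 97.7% elsewhere in replicate 1, and 98.5% against 96.3% in replicate 2.

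The first comparison asked how the states of pairs differ from those of single promoters as measured. Pairs were more often unmodified in every zone. Between the TSSs, counted for each gene up to the middle of the gap and at most 500 bp, the CC level was 98.1% in replicate 1 and 97.2% in replicate 2, against 81.5% and 77.8% within 500 bp upstream of single promoters. At 0 to 500 bp into the genes it was 97.7% and 96.1% against 85.9% and 81.8%, and at 500 to 2000 bp 69.8% and 65.8% against 64.9% and 59.9%. The differences of CC, as means over the replicates, were 18.03 ± 2.04, 13.1 ± 1.86 and 5.42 ± 0.77 percentage points (SD, n = 2). With a coverage minimum of 10 the difference was 19.7 points at 0 to 500 bp and 8.56 at 500 to 2000 bp, and with genes weighted equally it was 10.3 at 500 to 2000 bp. MM was lower in pairs by the largest margin of the modified states, at 0 to 500 bp 1.24% and 2.05% against 9.29% and 12.2%.

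HC/CH was lower in pairs as well. Upstream it was 0.371% and 0.479% in pairs against 2.16% and 2.41%, at 0 to 500 bp 0.391% and 0.681% against 1.48% and 1.82%, and at 500 to 2000 bp 3.21% and 3.16% against 3.47% and 3.55%. Each difference was tested per replicate with an exact two-sided sign-flip permutation test over the 19 autosomes, adjusted by Benjamini-Hochberg over the 36 tests of the comparison. The autosomes are parts of a library and not replicates. The adjusted p for CC upstream and at 0 to 500 bp was 6.24e-06 in both replicates, from the smallest p that 19 autosomes allow (3.8e-06), and all 19 autosomes had the same direction. Of the 36 tests 35 passed 0.05, and HH at 500 to 2000 bp in replicate 2 did not (exact permutation test, adjusted p = 0.158). The call of HC/CH at 500 to 2000 bp was lost with a coverage minimum of 10, where the difference was -0.49 points against -0.32.

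The levels of HC/CH and MC/CM at the start of the genes were set against DNA with no modification. On the synthetic duplexes with a CC site, 0.154% of calls in replicate 1 and 0.219% in replicate 2 were read as HC/CH, and 0.647% and 1.37% as MC/CM. MC/CM at 0 to 500 bp into paired genes, at 0.488% and 0.844%, was below that duplex background. HC/CH at 0.391% and 0.681% was above it, and stood at 0.248% and 0.490% after correction with the call rates of each replicate. This did not hold at all CpG counts. HC/CH was 5.47% and 7.99% in paired genes with under 20 CpG sites within 500 bp of the TSS. With 100 to 119 sites it was 0.030% and 0.139%, below the background. Over the 398 pairs with 10 or more sites in each replicate the median HC/CH was 0% in both. On pUC19, an unmodified plasmid read in the same libraries, HC/CH was 0.034% and 0.086%, and MC/CM was 0.264% and 0.461%, below its level in pairs.

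**Figure D1:**
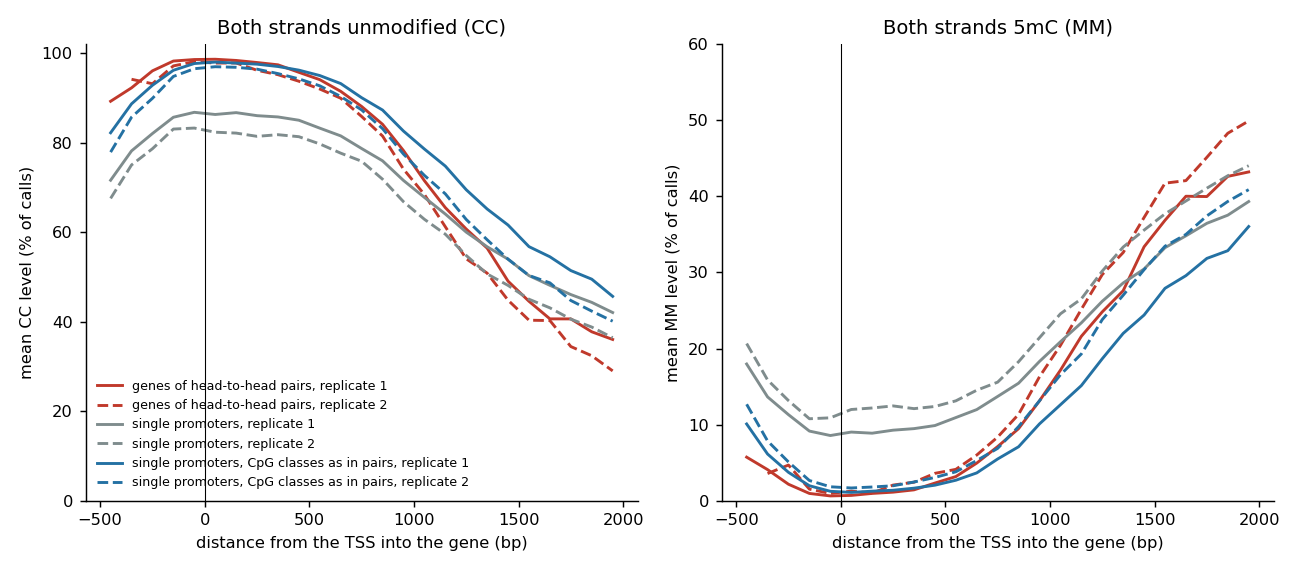
Mean level of CC (left) and MM (right) in bins of 100 bp against distance from the TSS, in percent of calls, for genes of head-to-head pairs, single promoters and single promoters weighted to the CpG classes of the pairs, with replicate 1 as solid and replicate 2 as dashed lines. Pairs start at 98.6% and 97.7% CC and fall to 36.0% and 29.0% at 1900 to 2000 bp, below both lines of single promoters.

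CC in pairs was highest around the TSS and fell steeply inside the genes. In the first 100 bp of the genes it was 98.6% and 97.7%. It first went under 90% in the bin from 700 bp in replicate 1 and from 600 bp in replicate 2, and under 75% in the bins from 1000 and 900 bp. At 1900 to 2000 bp it was 36.0% and 29.0%, against 42.0% and 36.4% at single promoters. The plot of CC by distance shows the lines of pairs and single promoters crossing between 1200 and 1500 bp. MM was 0.706% and 1.27% in the first 100 bp of paired genes and 43.2% and 49.9% in the last. The CpG sites of the reference were packed closer at the start of paired genes, at 8.47 per gene in the first 100 bp against 6.01 at single promoters, and were fewer further in, at 1.16 against 1.45 at 1400 to 1500 bp.

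The hmC states rose along the same stretch, in different proportion. HC/CH went from 0.260% and 0.352% in the first 100 bp of paired genes to 5.84% and 5.23% at 1900 to 2000 bp, a ratio of 22.4 and 14.9. HM/MH went from 0.120% and 0.152% to 3.93% and 2.58%, a ratio of 32.7 and 17.0, and MM rose by 61.2 and 39.4 times. At single promoters weighted to the CpG classes of the pairs the HC/CH ratio was 14.8 and 9.45. All states with hmC on either strand were 25.1% and 24.9% of the modified calls at 0 to 500 bp into paired genes and 17.4% and 13.98% at 500 to 2000 bp. After correction with the call rates they were 23.8% and 32.7%, and 13.0% and 13.6%. In the first 100 bp they were 28.6% and 23.5% in paired genes. At single promoters weighted to the CpG classes of the pairs they were 27.4% and 26.1% there. HC/CH took 67.4% and 71.03% of the hmC calls in the first zone, 0 to 500 bp into paired genes, and 61.2% and 66.2% in the second. After correction with the call rates these shares were 69.1% and 68.002% in the first zone and 76.2% and 68.7% in the second, so that the direction between the zones turned. The HC/CH ratio rests on levels in the first 100 bp that are near the duplex background. For HM/MH that background was 0.0032% and 0.018% and for MM 0.0059% and 0.067%, below the levels in the first 100 bp. MM sites were also misread, and the share of HM/MH calls on duplexes with an MM site was 4.51% for replicate 1 and 0.467% for replicate 2. Correction lowered HM/MH at 500 to 2000 bp into paired genes from 1.81% to 0.879% in replicate 1 and from 1.48% to 1.28% in replicate 2. The ratios of HM/MH are of levels as called.

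**Figure D2:**
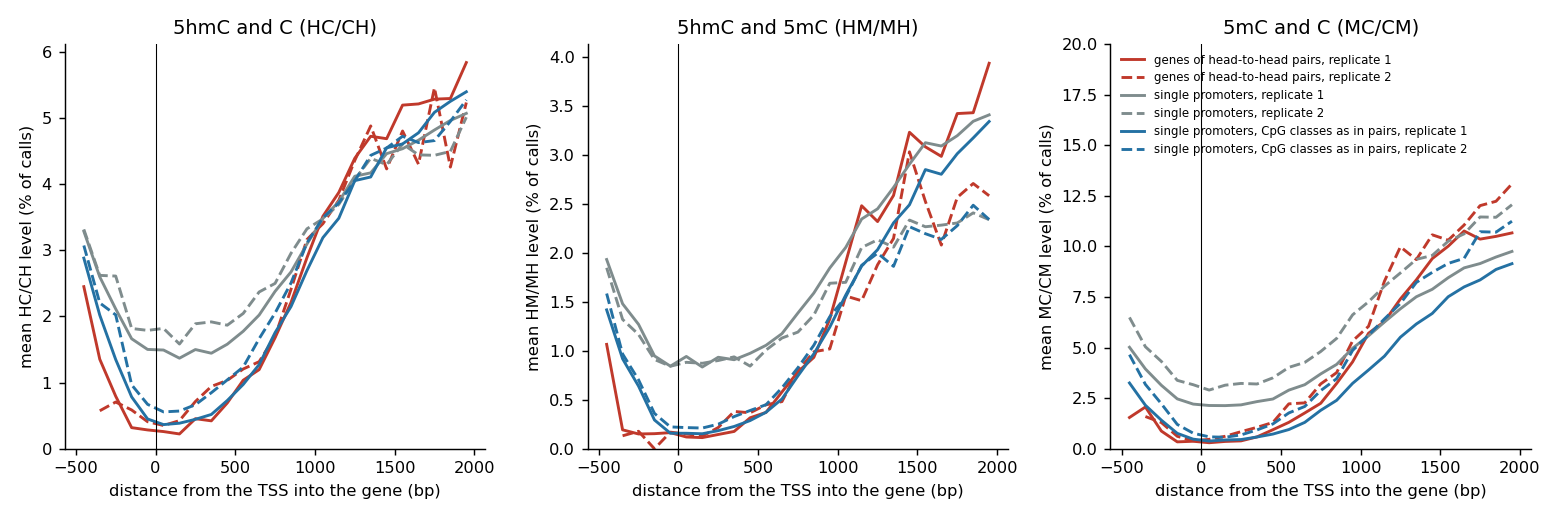
Mean level of HC/CH, HM/MH and MC/CM in bins of 100 bp against distance from the TSS, in percent of calls, with the sets and replicates drawn as for CC. In pairs HC/CH stays under 0.5% in the first 100 bp and reaches 5.84% and 5.23% at 1900 to 2000 bp, and HM/MH differs between the replicates at that end (3.93% and 2.58%).

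The second comparison asked whether pairs differ from single promoters with as many CpG sites. Promoters were put in classes of 20 by the number of CpG sites within 500 bp of the TSS, and the single promoters were weighted to the classes of the pairs. At 0 to 500 bp into the genes pairs and single promoters then differed little, with CC at 97.7% against 97.3% in replicate 1 and 96.1% against 95.9% in replicate 2. The differences of 0.38 and 0.20 points did not pass the exact sign-flip permutation test (adjusted p = 0.217 and 0.551, adjusted over 36 tests). HC/CH was lower in pairs by 0.091 points in replicate 1, which passed the same exact permutation test (adjusted p = 0.00628), and by 0.059 points in replicate 2, which did not (adjusted p = 0.205). In the class of 20 to 39 CpG sites CC was higher in pairs, at 87.4% and 86.1% against 77.4% and 75.2%, and in the class of 40 to 59 it was lower, at 96.8% and 94.3% against 97.4% and 96.5%, with no test by class. In the class of 60 to 79 CpG sites, the most common among paired genes with 475 of them, CC was 99.2% and 98.7% in pairs and 98.9% and 98.3% at single promoters.

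Upstream the pairs stayed higher, with CC at 98.1% and 97.2% against 90.1% and 87.1% (exact sign-flip permutation test over 18 and 14 autosomes with enough sites, adjusted p = 3.05e-05 and 0.000314). The upstream sites of a pair lie nearer to a TSS than those of a single promoter. With the upstream zone limited to 100 bp, CC was 98.5% against 97.0% in replicate 1 and 98.8% against 96.9% in replicate 2, and the difference no longer passed (exact permutation test, adjusted p = 0.0786 and 0.515). These tests had 17 autosomes with enough sites in replicate 1 and 8 in replicate 2.

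At 500 to 2000 bp the direction turned. Against single promoters of the same CpG class at the TSS, pairs had less CC, at 69.8% against 74.9% and 65.8% against 70.3% (exact sign-flip permutation test, adjusted p = 3.05e-05 and 0.000320). MM was higher by 3.73 and 3.76 points and MC/CM by 1.13 and 0.82 points, and all of these passed in both replicates. The mean difference of CC, -4.81 points, became -2.13 with a coverage minimum of 10 and -3.14 with sites covered in both replicates. Its call was lost with that coverage minimum, and within distance bins of 100 bp, where the difference was -5.86 points and replicate 2 did not pass (exact permutation test, adjusted p = 0.464). In the class of 40 to 59 CpG sites CC was 62.9% and 58.8% in pairs and 69.4% and 64.2% at single promoters, and in the class of 80 to 99 it was 75.1% and 70.2% against 80.9% and 76.8%. HC/CH did not pass in either replicate (differences of 0.13 and -0.11 points).

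The classes above use the CpG count at the TSS alone. In an alternative added after seeing the data, single promoters were matched on both counts, that within 500 bp of the TSS and that 500 to 2000 bp into the gene. CC at 500 to 2000 bp was then 69.8% in pairs against 69.0% in replicate 1 and 65.5% against 64.9% in replicate 2, and did not pass (exact sign-flip permutation test, adjusted p = 0.137 and 0.196). In the same alternative HC/CH was lower in pairs in both replicates, at 3.21% against 3.57% and 3.18% against 3.58% (exact permutation test, adjusted p = 4.58e-05 and 0.00661), lower on 18 and 16 of the 19 autosomes. With classes by the inner count alone, CC was higher in pairs, at 69.8% against 58.4% and 65.8% against 54.2%.

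**Figure D3:**
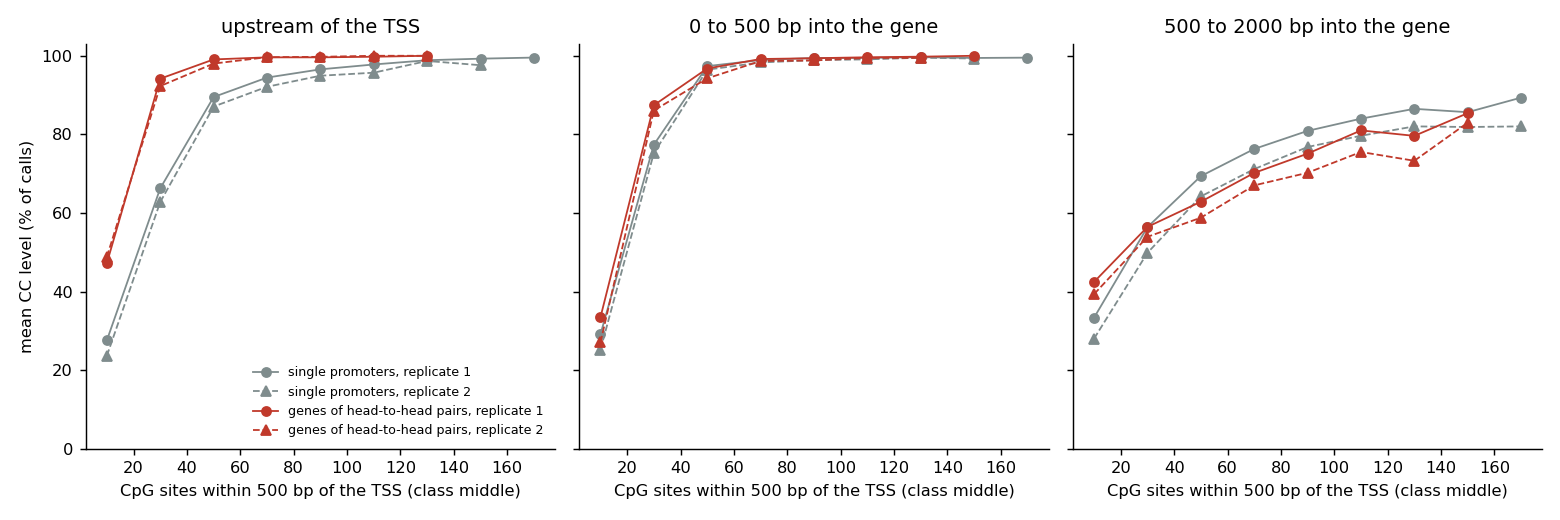
Mean CC level in percent of calls, by the number of CpG sites within 500 bp of the TSS in classes of 20, for genes of head-to-head pairs and single promoters in the zone upstream (left), 0 to 500 bp into the gene (middle) and 500 to 2000 bp into the gene (right), with circles for replicate 1 and triangles for replicate 2. The sets lie on each other in the middle panel from 60 CpG sites upward, pairs lie above upstream, and pairs lie below further in for the classes from 40 to 139.

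Single promoters with a divergent non-coding TSS within 1000 bp, of which there were 780, lay between the pairs and the other single promoters near the TSS. Their CC level was 94.1% and 92.8% upstream and 95.2% and 92.7% at 0 to 500 bp, where the remaining 15904 single promoters had 85.4% and 81.1%. At 500 to 2000 bp they had 75.2% and 70.6%, above the 69.8% and 65.8% of the pairs. Their median was 69 CpG sites within 500 bp. These levels were not tested.

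Gaps of different length were compared next. The 300 pairs with gaps of 1 to 100 bp had a CC level between the TSSs of 98.8% and 98.1%, the 195 pairs of over 100 and up to 200 bp had 98.3% and 97.5%, the 133 pairs of over 200 and up to 400 bp had 99.6% and 99.1%, and the 86 pairs with longer gaps had 96.1% and 94.96%. At 0 to 500 bp into the genes the pairs with the longest gaps were again lowest, at 94.3% and 91.2%, with HC/CH at 0.935% and 1.52%. They also had fewer CpG sites, with a median of 54 within 500 bp against 69 to 71.5 in the other classes.

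The test set gaps of 1 to 200 bp against gaps of over 400 bp. CC differed by 2.42 and 2.88 points between the TSSs and by 4.83 and 5.80 points inside the genes, and none of the 24 tests passed after adjustment (exact sign-flip permutation test over 18 autosomes, smallest adjusted p = 0.109). With the TSS of the principal transcript the mean difference of CC fell from 2.65 to 0.092 points between the TSSs and from 5.32 to 2.64 inside the genes, and with a coverage minimum of 10 it was 0.67 between the TSSs. Of the 24, 5 had an unadjusted exact permutation p under 0.05, among them MC/CM between the TSSs, at 0.294% against 0.871% in replicate 1 (p = 0.0176) and 0.217% against 1.07% in replicate 2 (p = 0.0120). On CC duplexes 0.647% and 1.37% of calls were read as MC/CM, and of these levels only the 0.871% was above that background.

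**Figure D4:**
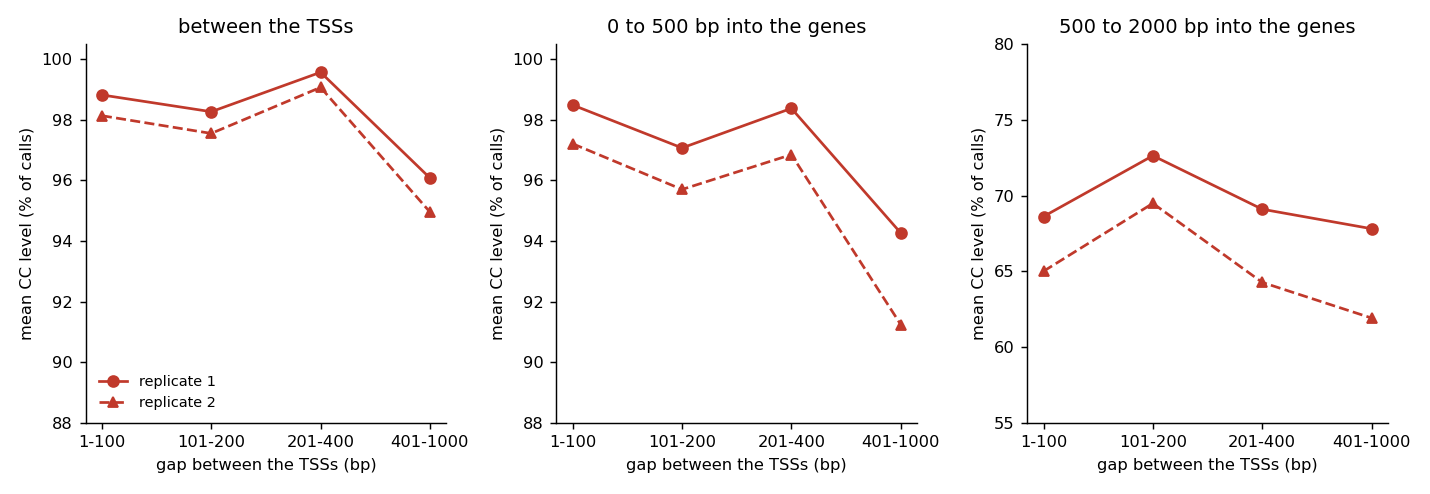
Mean CC level in percent of calls for 4 classes of the gap between the TSSs, between the TSSs (left), 0 to 500 bp into the genes (middle) and 500 to 2000 bp into the genes (right), with circles for replicate 1 and triangles for replicate 2, on axes that do not start at 0 and that differ in the right panel. The class of the longest gaps is lowest in every panel, at 96.1% and 94.96% between the TSSs.

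The strand of the modified base was then read relative to the gene. In paired genes, over 0 to 2000 bp, MC/CM with the methylated base on the sense strand was 1.65% and 2.26%, against 1.56% and 2.08% with it on the antisense strand. The excess of 0.089 and 0.184 points passed (exact sign-flip permutation test over 19 autosomes, adjusted over 12 tests, p = 0.0355 and 0.0171), with the same direction on 15 and 14 autosomes. The call was lost with a coverage minimum of 10, with sites covered in both replicates, and with gaps of at most 500 bp, where the excess was 0.28, 0.17 and 0.12 points as a mean over the replicates. HC/CH was 0.975% and 1.12% with hmC on the sense strand and 0.922% and 1.04% with hmC on the antisense strand, which did not pass (exact permutation test, adjusted p = 0.194 and 0.374). HM/MH was 0.507% and 0.461% with hmC on the sense strand and 0.539% and 0.520% on the antisense strand (exact permutation test, adjusted p = 0.111 and 0.194). At single promoters, with 420957 and 144690 sites against 46950 and 17661 in pairs, all 3 passed in both replicates, with sense minus antisense at 0.058 and 0.151 points for MC/CM, 0.034 and 0.056 for HC/CH and -0.029 and -0.027 for HM/MH. Whether pairs and single promoters differ in this was not tested.

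Few promoters of pairs were mostly modified. A promoter was counted where the mean CC level from the upstream zone to 500 bp into the gene was under 50% in both replicates, with 5 or more sites in each. The upstream zone reached to the middle of the gap in pairs and 500 bp upstream at all other promoters, so the windows compared are unlike. Of 750 paired genes with enough sites 8 were counted, or 1.07% (95% exact binomial interval 0.462 to 2.09%, for counting error only), against 952 of 7041 single promoters (13.5%) and 11.7% of all promoters with enough sites. By CpG count within 500 bp, 5 of the 8 were among the 8 paired genes with under 20 sites and enough coverage, where 665 of 895 single promoters were counted (74.3%). In the class of 20 to 39 CpG sites the shares were 2 of 46 in pairs and 275 of 1342 at single promoters. In that class CC in the upstream zone was 94.2% and 92.3% in pairs and 66.3% and 62.8% at single promoters. How far the unlike windows set the shares was not tested. In the class of 40 to 59 sites the shares were 1 of 207 and 10 of 1802. From 60 CpG sites upward none of the paired genes was counted. At single promoters 1 of 1606 was counted in the class of 60 to 79, 1 of 889 in that of 80 to 99, and none above. The count in pairs was 24 of 1307 without replicate 2, 12 of 760 without replicate 1, and 5 of 812 with the TSS of the principal transcript. The shares of all promoters in these settings were 23.0%, 13.4% and 11.5%.

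The 8 genes, named after their values were seen, were Inha, Tex44, Fv1, Smyd1, Milr1, Tssk2, Gm6034 and Rnf14, of different pairs. Inha, which codes for the alpha subunit of inhibin, had CC at 36.4% and 31.0%. Its partner Obsl1, a cytoskeletal adaptor, had 98.5% and 100.0% and a CpG count of 66 within 500 bp, against 19 for Inha. Milr1, an immune receptor of mast cells, had CC at 4.43% and 5.56%, and its partner Pecam1, an adhesion molecule of endothelium, 17.6% and 0%. Smyd1, a methyltransferase of muscle, had 10.0% and 0%, and its partner Cd8b1, a chain of the T cell co-receptor CD8, 22.2% and 20%. Tssk2, a kinase of the testis, had 10.9% and 8.64% across a gap of 75 bp from Dgcr2. Of the 8 partners, Miip alone had enough sites in both replicates, and it was not counted.

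A level of HC/CH of 5% or more in both replicates was found in 7 paired genes of 750, or 0.933% (exact interval 0.376 to 1.91%), against 7.95% of single promoters and 6.78% of all promoters. The count in pairs was 45 of 1307 (3.44%) without replicate 2 and 27 of 760 (3.55%) without replicate 1. The shares of all promoters were then 17.4% and 14.3%. These shares were not split by CpG count, and the windows are unlike upstream as for CC, so they do not show a trait of pairs at equal CpG count. The 7 were Inha, Sirt1, Pcsk4, Mmrn2, Lrrc74b, Gm6034 and Rnf14. In this order they had 19, 25, 38, 19, 30, 20 and 13 CpG sites within 500 bp of the TSS. Sirt1, the deacetylase, had HC/CH at 5.11% and 7.65% with CC at 75.7% and 76.1%, while its partner Dnajc12 had CC at 98.7% and 97.8%. Mmrn2, a matrix protein of endothelium, had HC/CH at 13.5% and 28.8%, the highest in replicate 2, on 61 and 39 calls.

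Pair by pair, most promoters with enough sites were close to fully CC. Over the sites between the TSSs and up to 500 bp into both genes, the 398 pairs with 10 or more sites in each replicate had a median CC of 99.6% in replicate 1 and 99.5% in replicate 2. CC was 95% or more in both replicates in 338 of them and 90% or more in 362. The same count was not made for single promoters, so whether it is particular to pairs was not tested. A mean over sites is another measure than a count. At single promoters in the class of 60 to 79 CpG sites that mean CC was 98.9% and 98.3% at 0 to 500 bp, without upstream sites. CC in these pairs was under 80% in both replicates in 4 and under 50% in 1, Miip/Fv1. Pairs with fewer sites are outside these counts, and some of them had lower CC. Nt5c3b/Klhl10 had 34.6% and 34.0% on 10 and 5 sites, and Milr1/Pecam1, described above, was also left out.

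Among long-known pairs, 11 of 20 met the rule. Of the others, 8 had overlapping 5′ ends and 1, Brca2/Zar1l, had TSSs over 1000 bp apart. Among those that met it, 7 pairs with a gene of DNA repair or replication, Brca1/Nbr1, Atm/Npat, Mcm4/Prkdc, Palb2/Dctn5, Tsc2/Nthl1, Toe1/Mutyh and Rad51ap1/D6Wsu163e, had CC from 99.1% to 100.0% in replicate 1 and from 99.4% to 100.0% in replicate 2. Atm/Npat, with the kinase that responds to DNA breaks, was CC in every one of 509 calls at 59 sites in replicate 1. Gart/Son, with the purine synthesis enzyme Gart, had 99.4% and 100.0%, and Hadha/Hadhb 99.7% and 99.3%. Col4a4/Col4a3, the chains of basement membrane collagen, stood apart from these in replicate 1, with CC at 72.8% and HC/CH at 9.03% over 27 sites and 193 calls. Replicate 2 covered 4 sites of that pair with 20 calls, with CC at 60%.

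Pairs were also grouped by gene name. The 33 pairs with a mitochondrial protein and 10 sites in each replicate, of 42 in all, had a median CC of 99.6% and 99.3%. The 8 measured pairs with a zinc finger gene of the Zfp series had 99.6% and 97.4%, and the 3 with a proteasome gene 97.5% and 99.5%. Of 13 pairs of histone genes 2 had enough sites, and they differed. Hist1h2ba/Hist1h2aa had CC at 84.6% and 69.0%, with HC/CH at 2.80% and 11.994%. The other pair had CC at 98.3% and 98.7%, with HC/CH at 0.493% and 0%. No pair in which both genes are olfactory, vomeronasal or protocadherin genes met the rule. Pairs with 1 such gene were not counted, and Rnf14 has the protocadherin gene Pcdh12 as its partner, over a gap of 135 bp.

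The 10 pairs with the lowest CC were ranked on the higher of the replicates, among pairs with 10 or more sites in each. They began with Miip/Fv1, which joins Miip and the retrovirus restriction gene Fv1. Its CC level was 34.5% in replicate 1, with 45 sites, and 48.5% in replicate 2, with 28 sites, with MM at 51.4% and 34.6% and HM/MH at 3.71% and 4.92%. The next were Sncg/Mmrn2 (58.0% and 53.1%), Sox6/1110004F10Rik (76.0% and 72.2%), Rbak/Spdye4b (77.8% and 73.6%), Lrrc74b/P2rx6 (69.5% and 80.1%) and Plgrkt/Cd274 (81.1% and 77.9%), the last with the immune checkpoint ligand Cd274. Kctd19/Lrrc36, Hist1h2ba/Hist1h2aa, Gm17657/Tbc1d22b and Obsl1/Inha followed, at 81.8%, 84.6%, 84.2% and 85.7% in replicate 1 and 74.1%, 69.0%, 84.9% and 56.1% in replicate 2. Hist1h2ba and Hist1h2aa code for testis histones. The replicates of Obsl1/Inha differ with their sites, of which 25 of 34 lay in Obsl1 in replicate 1 and 4 of 11 in replicate 2.

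HC/CH ranked on the lower of the replicates was highest in Sncg/Mmrn2, at 11.1% and 20.2% on 16 and 10 sites. Lrrc74b/P2rx6, with a receptor gene of the P2X family, had 7.35% and 5.83%, Obsl1/Inha 4.73% and 10.3%, Kctd19/Lrrc36 4.29% and 5.00%, and Fam219a/Dnaic1, with a gene of the ciliary dynein, 4.14% and 4.27%. In Fam219a/Dnaic1 the side of Fam219a was CC in every call, over 4 and 10 sites, and the side of Dnaic1 had CC at 78.3% and 43.7% over 13 and 3 sites. HM/MH was highest in Miip/Fv1. It was followed by Hist1h2ba/Hist1h2aa (3.55% and 2.29%), Obsl1/Inha (2.16% and 5.15%), Lrrc74b/P2rx6 (2.31% and 1.79%) and Gm17657/Tbc1d22b (1.67% and 1.28%).

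The sides of a pair could be set against each other at 0 to 500 bp in 167 pairs. The median absolute difference of CC between the genes of a pair was 0.679 points in replicate 1 and 0.617 points in replicate 2, and it was 10 points or more with the same sign in both replicates in 10 pairs. Ranked on the smaller of the replicates, the largest was in Miip/Fv1, with Miip at 51.8% and 62.9% and Fv1 at 9.46% and 15.1%. In Net1/Tubal3, Net1, which codes for a guanine nucleotide exchange factor, was at 99.4% and 100.0% and the tubulin gene Tubal3 at 61.8% and 38.2%, over a gap of 54 bp. In Gm17657/Tbc1d22b, Gm17657 was at 63.8% and 64.2% and Tbc1d22b at 100.0% and 97.9%. Rbak/Spdye4b had too few sites in replicate 2 for this list, and had 100.0% and 100.0% at Rbak and 43.0% and 40.6% at Spdye4b. Across the 167 pairs Spearman's rank correlation between the genes was 0.05 and 0.09, a description over pairs of which most are close to 100%.

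Further in, the genes of a pair differed more, over another set of pairs than the 167 above. At 500 to 2000 bp, 363 pairs had 5 or more sites on each side and in each replicate, and the median absolute difference of CC between the genes was 17.4 points in replicate 1 and 19.7 points in replicate 2. It was 25 points or more in 138 and 150 pairs. Both genes stayed at 50% CC or more in both replicates in 182 pairs, both were under 50% in 13, and in 89 the same gene was under 50% in both replicates while its partner was at 50% or more. Spearman's rank correlation between the genes of a pair was 0.11 and 0.10 for CC and -0.02 and 0.09 for HC/CH, while that between the replicates for the difference of CC was 0.79. These are descriptions across pairs that share libraries. The same values were not taken for genes that are not partners, so whether they are particular to pairs was not tested.

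The gene with more reference CpG sites at 500 to 2000 bp had the higher CC in 247 of 353 pairs with unequal counts in replicate 1 and in 227 of 352 in replicate 2. The rank correlation between the difference in CpG count and the difference in CC was 0.52 and 0.39. Brca1/Nbr1 had CC at 70.8% and 73.3% in Brca1 and 96.9% and 92.1% in Nbr1. Tsc2/Nthl1 was low on both sides, with 39.0% and 41.2% in Tsc2 and 38.5% and 19.9% in the DNA glycosylase gene Nthl1, and Gart/Son was high, with 93.8% and 73.3% in Gart and 99.4% and 100.0% in Son. In replicate 2 Brca1 and Gart had 3 sites each in this zone and Tsc2 had 4, so these pairs are not among the 363. The pairs with the largest difference, chosen after their values were seen, were Rnf151/Rps2, with 11.9% and 20.7% in Rnf151 and 99.0% and 93.3% in the ribosomal protein gene Rps2, and Mepce/Zcwpw1, with 100.0% and 100.0% in Mepce and 30.3% and 15.6% in Zcwpw1. In Pinlyp/Xrcc1, Pinlyp had 26.1% and 11.4% and the DNA repair gene Xrcc1 94.3% and 95.2%. In these pairs the gene with the higher CC had 70, 127 and 72 CpG sites in the zone and its partner 25, 32 and 22. Within 500 bp of the TSS used here, Rnf151 and Rps2 had 10 and 9 CpG sites, and Pinlyp and Xrcc1 had 15 and 23. Mepce and Zcwpw1 had 59 and 60. Between the TSSs and up to 500 bp into both genes, CC of Rnf151/Rps2 was 51.7% over 7 sites and 22.2% over 3. Whether transcription of these genes starts at the TSS used was not tested.

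**Figure D5:**
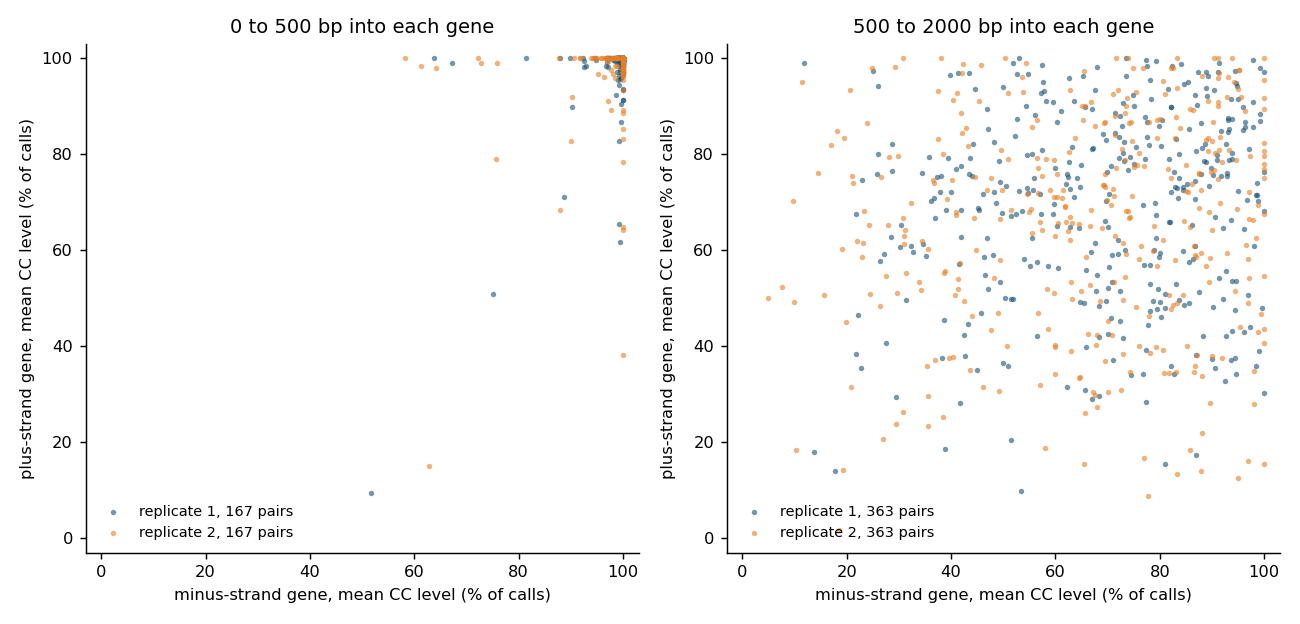
Mean CC level of the plus-strand gene against that of the minus-strand gene of each pair, in percent of calls, 0 to 500 bp into the genes (left, 167 pairs) and 500 to 2000 bp into the genes (right, 363 pairs), with a point per pair and replicate. Points crowd at the upper right corner on the left, with Miip/Fv1 as the lowest point, and spread over the whole field on the right.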

How the data were processed

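Per the labels and the study's methods, read pairs were filtered by adapter configuration and trimmed with Cutadapt (4.6), inserts were aligned to GRCm38 (mm10) with BSBolt, duplicates were removed with Picard (3.1.1), and the CpG state was called per read pair. The authors deposited, per replicate, the count of calls in each state at each CpG site and the depth, without spike-in correction. Blacklisted regions, and sites where several calls were erroneous, had been taken out before deposit. The deposited percent of each state is its count over the depth, which was checked for every entry. Replicates were not pooled.

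TSSs are the 5′ ends of genes in GENCODE vM21, and for 5414 of the 20807 genes the principal transcript starts elsewhere. Each site went to the nearest TSS of a paired or single gene. Python 3.11.15 was used, with scipy 1.17.1, pandas 2.3.3 and numpy 2.4.6. The comparisons were tested on simulated data. Levels within CpG classes used classes with 20 or more sites in both sets. Tests were exact two-sided sign-flip permutation tests over the autosomes with enough sites in both sets (19 or fewer), per replicate, with Benjamini-Hochberg adjustment. With 1 condition, no test between samples was possible. With 5 to 10 calls a level at 1 site is coarse, and intervals cover counting error only. Corrected levels solve the 9 equations of the call rates, and negative values were kept.

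Named pairs had 10 or more sites in each replicate and were the 10 with the lowest CC, the 5 each with the highest HC/CH and HM/MH, the 3 with the largest difference between sides, and a list of 20 long-known pairs, named whatever their coverage. The members and lists were chosen with earlier results of these data known. Of the long-known pairs, 1 that met the rule is not reported here.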

Additional observations from a re-analysis of the deposited data

How the results depend on the processing

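The comparisons and counts, 19 results in all, were recomputed under alternative settings, which gave 196 values over all results. Of these values 13 turned the direction, 10 lost and 4 gained the call, and 6 moved a count by over 1.5 times. As measured, HC/CH at 500 to 2000 bp no longer passed with a coverage minimum of 10 (-0.49 points). Within CpG classes upstream, CC and HC/CH no longer passed with an upstream zone of 100 bp (1.71 and -0.33 points) or within distance bins of 100 bp (3.03 and -0.55), with 17 autosomes in replicate 1 and 8 in replicate 2. At 0 to 500 bp CC was -0.0903 with classes in steps of 10, HC/CH passed with the TSS of the principal transcript (-0.12), and both passed with classes by the inner CpG count (15.8 and -1.29). CC at 500 to 2000 bp, at -4.81 points, did not pass in both replicates with a coverage minimum of 10 (-2.13) or within distance bins (-5.86, passing in replicate 1 alone), and turned with classes by the inner count (11.5) and by both counts (0.73). HC/CH there, at 0.0074 points, turned to -0.24 with a coverage minimum of 10, -0.10 with sites weighted by depth, -0.20 with sites covered in both replicates, -0.0059 with gaps of at most 500 bp, -0.036 with principal transcripts, -0.13 against single promoters with no TSS of any type within 5 kb, -0.013 after correction, -0.66 with the inner count and -0.38 with both counts. MC/CM by strand no longer passed with a coverage minimum of 10 (0.28), with sites covered in both replicates (0.17) or with gaps of at most 500 bp (0.12). The distance bins, the inner count and both counts were chosen after seeing the data. The cause was not tested.

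With 1 replicate left out, HC/CH within classes ranged from -0.11 to 0.13 points at 500 to 2000 bp and from -0.091 to -0.059 at 0 to 500 bp. The 8 paired promoters under 50% CC became 12 of 760 and 24 of 1307, and the 7 with HC/CH of 5% or more became 27 and 45, since 1 replicate then has to pass and more promoters have sites. Over all promoters the share under 50% CC went from 11.7% to 13.4% and 23.0%. That with HC/CH of 5% or more went from 6.78% to 14.3% and 17.4%. Both counts in pairs were 0 with a coverage minimum of 10, which left 5 paired promoters, and the first was 5 with principal transcripts. No paired analysis was possible because both replicates belong to 1 group. Depth limits replicate 2, which covers 15.1% of the sites 0 to 500 bp into paired genes.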
